A study of Drosophila melanogaster with 6 samples.

Results

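The genes described here are the 8 core genes of the small RNA pathways of Drosophila: Dcr-2, AGO2 and r2d2, which act on small interfering RNAs (siRNAs), and drosha, pasha, Dcr-1, loqs and AGO1, which act on microRNAs. They were chosen by name, not by a measured value, though with earlier results of these data known. They are 8 of the 17737 genes in the count table, of which 6922 had a count in any library. The study compared dopamine neurons with and without knockdown of Stromalin, a cohesin subunit encoded by the gene SA, by RNA-seq of hand-picked PPL1-γ1pedc neurons of larvae in the third instar, 120 h after egg laying. There were 3 control and 3 Stromalin KD libraries (the KD libraries) of 25 neurons each. Control larvae carried ∆TH-D'-GAL4 with UAS-mCD8:GFP and UAS-dicer2, and no RNAi transgene. Stromalin KD larvae carried the same 3 elements and a UAS hairpin against Stromalin from the KK collection. Both genotypes therefore carried UAS-dicer2, so that the 2 groups differ in the hairpin and not in the Dcr-2 transgene. The driver marks a few dopamine neurons per brain at this stage, and neurons from many brains were pooled for each library. The labels do not say whether the 3 libraries of a group came from separate crosses, so p-values cover no spread beyond these libraries. In edgeR that spread was pooled over genes and is not each member's own.

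In flies the siRNA and microRNA pathways use separate enzymes. In the microRNA pathway, Drosha and its RNA-binding partner Pasha cut hairpins out of primary transcripts in the nucleus, Dicer-1 with its partner Loquacious cuts the mature duplex in the cytoplasm, and Argonaute-1 carries the microRNA to its target mRNAs. In the siRNA pathway, Dicer-2 cuts long double-stranded RNA, R2D2 helps to load the product, and Argonaute-2 slices the target. Long-hairpin RNAi transgenes are processed by the siRNA pathway, and extra Dicer-2 is commonly supplied from a UAS transgene to strengthen RNAi in neurons.

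Depth ran from 7790921 to 9625056 counts per library, and rRNA genes held 16.5% to 30.2% of them. The 4 dopamine markers (ple, Ddc, Vmat, DAT) and the 4 pan-neuronal markers each reached 10 counts in all 6 libraries. Of the 5 glial genes, repo and alrm were at 0 in every library, and the other 3 reached 10 counts in some: the list summed to 0.272, 339 and 5.49 TPM in control against 159, 65.1 and 0 TPM in the KD libraries. The part of glial RNA in the results was not tested. Counts of 0 were frequent for single genes. A gene at 0 could have stood at up to 3 counts, which is 0.312 to 0.385 CPM (counts scaled to library size) depending on the library, an allowance for counting error only. The targeted gene SA had 0, 0 and 1372 counts in control against 3, 0 and 0 in the KD libraries, so that its counts do not check the knockdown in most libraries. In pooled neurons, fewer expressing cells and less RNA per cell cannot be told apart.

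Dcr-2 stood far above the other members in every library (the plot of counts by gene). On the deposited TPM scale (transcript abundance corrected for gene length and library size, which allows genes to be compared), Dcr-2 had 1850, 3201 and 2485 TPM in the control libraries and 2795, 2260 and 2013 TPM in the Stromalin KD libraries. The 2 genotypes overlapped, and the highest library held 1.73 times the TPM of the lowest. AGO1, the next member, averaged 337 ± 175 TPM (SD, n = 6) against 2434 ± 504 for Dcr-2, a ratio of means of 7.23, and lay below Dcr-2 in 6 of 6 libraries. Dcr-2 took 90.0%, 83.8% and 81.6% of the summed TPM of the 8 members in control against 80.7%, 84.0% and 73.7% in the KD libraries.

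**Figure D1:**
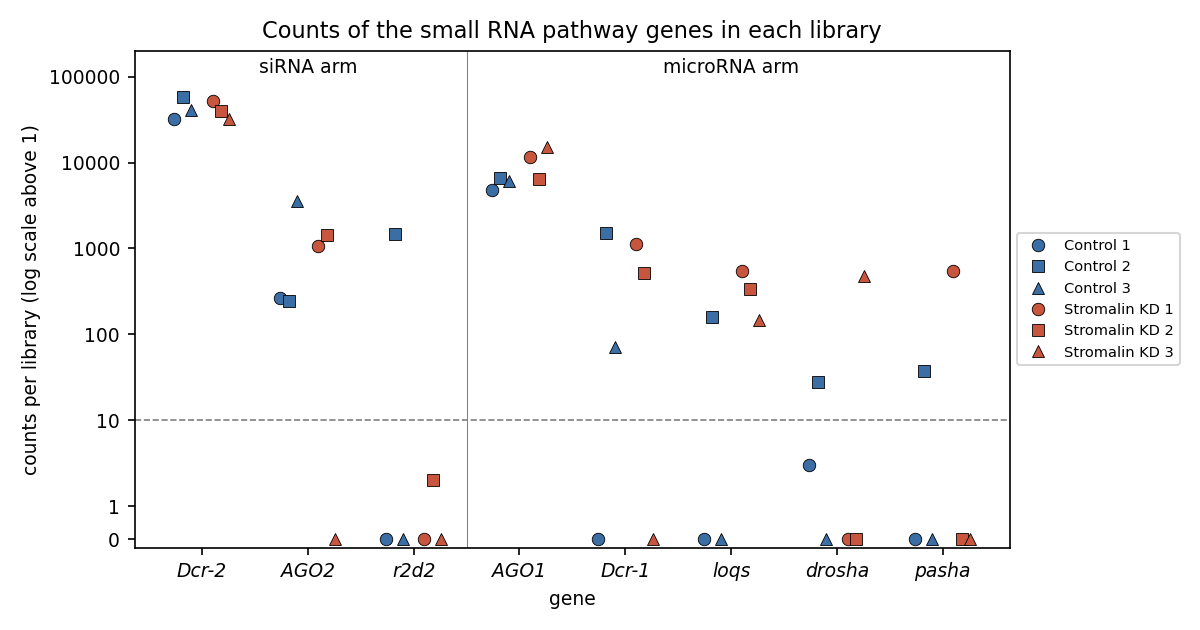
Counts of each small RNA pathway gene in each library (y axis, counts, log scale above 1 with 0 at the bottom; x axis, gene), with control in blue and Stromalin KD in red, 1 marker shape per replicate number, and a dashed line at 10 counts. Dcr-2 and AGO1 lie above 1000 counts in all 6 libraries, while each other member is at 0 in at least 1 library.

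Among all genes, Dcr-2 ranked 38, 22 and 34 by TPM in control against 29, 33 and 38 in the KD libraries. Only 11 genes had more TPM than Dcr-2 in every library. Of these, 9 are rRNA or mitochondrially encoded genes, and the other 2 are Vmat, the vesicular monoamine transporter that loads dopamine into synaptic vesicles, and eEF1alpha1, a translation elongation factor. Dcr-2 alone held from 0.372% to 0.604% of all counts of a library. Its level was close to that of ple, the tyrosine hydroxylase gene that defines dopamine neurons: the TPM ratio of Dcr-2 to ple was 1.06, 1.52 and 1.49 in control against 3.65, 1.04 and 1.46 in the KD libraries. The high ratio of Stromalin KD 1 went with its ple level of 767 TPM, the lowest of the 6 libraries.

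The Dcr-2 gene lies on the minus strand of 2R:17574979-17581525 (BDGP6) and has 5684 exonic bases, of which 1 base is shared with the neighbouring gene Rab4. The counts are per gene, so transcripts of the UAS-dicer2 transgene and of the endogenous gene cannot be told apart, and no library without the transgene was analysed here.

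Dcr-2 also varied little between libraries. Its coefficient of variation over the 6 libraries was 20.7% in TPM, whereas the median was 75.5% over the 1001 genes that reached 10 counts in every library (the plot of level and spread). Of those genes, 12 (1.20%) varied less. For AGO1 the coefficient was 52.0%, and 195 of the 1001 genes (19.5%) varied less. For the other 6 members it ran from 102% for loqs to 245% for r2d2. Across these genes the spread was smaller at higher levels (Spearman's rho -0.40 over 1001 genes of the same 6 libraries, a description only), and Dcr-2 was not compared with genes at its own level.

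**Figure D2:**
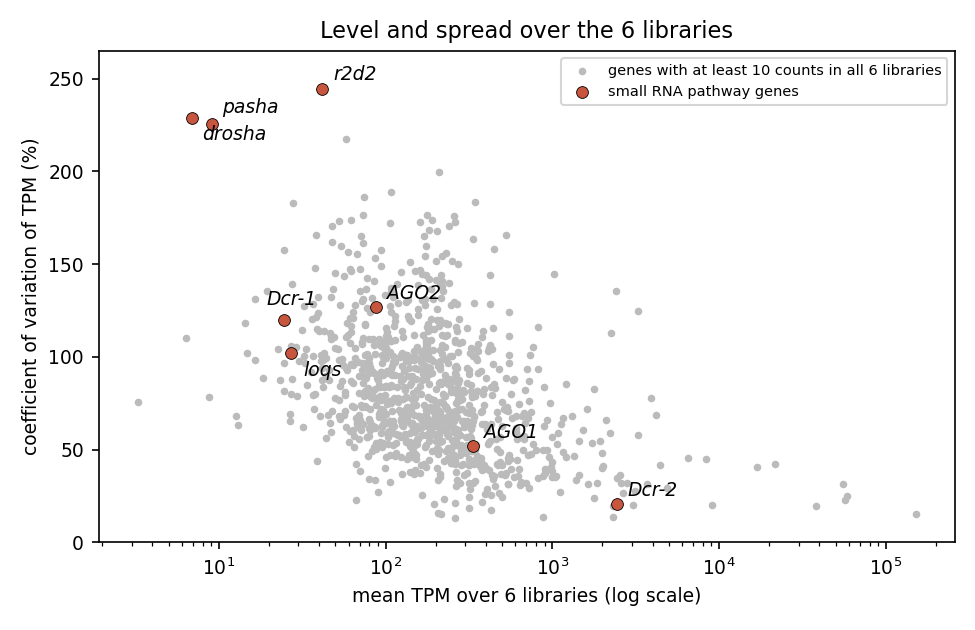
Coefficient of variation of TPM (y axis, %) against mean TPM over the 6 libraries (x axis, log scale) for the 1001 genes that reached 10 counts in every library (grey) and the 8 small RNA pathway genes (red). Dcr-2 lies at the lower edge at 20.7%, AGO1 at 52.0%, and the other 6 members above 100%.

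Dcr-2 did not differ detectably between the genotypes. Its level in normalized CPM (counts scaled to the TMM-adjusted library size) was 5086 ± 510 in control against 4542 ± 1223 in the KD libraries (SD, n = 3 each). Stromalin KD set over control gave a log2 fold change of -0.16 (SE 0.38, 95% interval -0.91 to 0.58, edgeR quasi-likelihood test, adjusted p = 0.9996). On the linear scale the edgeR interval runs from 0.534-fold to 1.49-fold, the narrowest edgeR interval of any tested member. DESeq2 gave a log2 fold change of -0.20 with a far larger SE of 2.10, so the narrow limit depends on the tool. A two-sided exact permutation of the 6 libraries, which cannot give a p under 0.1, gave p = 0.6 in normalized CPM and 0.8 in TPM.

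The genes whose pattern over the 6 libraries was most like that of Dcr-2 were sm, an hnRNP L homologue, tutl, an immunoglobulin-family protein of neurons, and Msp300, a nesprin. The measure was the root mean square difference of log2 normalized CPM, each gene centred on its own mean, over 6 libraries and 1000 candidate genes. It was 0.20 for sm, 0.22 for tutl and 0.24 for Msp300, against a median of 1.38 over the candidates. Since Dcr-2 was nearly flat, these are genes that were nearly flat too, at 165, 260 and 393 mean TPM.

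The partners of Dcr-2 in the siRNA pathway were far lower and uneven. AGO2, the slicing Argonaute, had 268, 247 and 3542 counts in control against 1072, 1440 and 0 in the KD libraries. Control 3 alone held 53.9% of its counts, and the genotypes overlapped. In TPM this was 20.9, 18.9 and 298 in control against 78.1, 111 and 0 in the KD libraries. The log2 fold change was -1.005 (SE 2.68, 95% interval -6.26 to 4.25, edgeR adjusted p = 0.9996), and it became 1.51 when control 3 was left out. AGO2 (3L:15554113-15561042, plus strand) shares 317 of its 4144 exonic bases with CG7739 on the other strand. CG7739 had 0, 13 and 215 counts in control against 1751, 61 and 0 in the KD libraries.

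r2d2, whose protein pairs with Dicer-2 to load siRNAs, had 1488 counts in control 2 and 2 counts in Stromalin KD 2, and 0 in the other 4 libraries. With at least 10 counts in 1 library only, it did not pass the count filter (at least 10 counts in at least 2 libraries) and was not tested. Without control 2, r2d2 would be left with the 2 counts of Stromalin KD 2. It lies on the plus strand of 2L:7800147-7802098 and shares 431 of its 1879 exonic bases (22.9%) with Cdc14 on the other strand. Cdc14 held 4051, 672 and 8857 counts in control against 13, 958 and 2574 in the KD libraries. Whether the counting used strand is not given in the sources, so reads in the shared bases cannot be told apart. The summed TPM of AGO2 and r2d2 was 20.9, 270 and 298 in control against 78.1, 111 and 0 in the KD libraries. In Stromalin KD 3, Dcr-2 at 2013 TPM was thus the single member of the siRNA pathway with a count.

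AGO1, the Argonaute of the microRNA pathway, was the only member besides Dcr-2 found in all 6 libraries. It had 4736, 6551 and 6117 counts in control against 11541, 6477 and 15246 in the KD libraries. In counts and TPM, Stromalin KD 1 and 3 lay above all controls, whereas Stromalin KD 2 lay within their range. In normalized CPM, Stromalin KD 2 at 621 lay just below the lowest control, control 2 at 627. The genotypes thus overlapped on each of these scales. In TPM the means were 231 ± 40.1 in control against 442 ± 204 in the KD libraries (SD, n = 3 each), a ratio of 1.91. This difference did not exceed the spread between libraries: the log2 fold change was 0.85 (SE 0.89, 95% interval -0.89 to 2.59, edgeR adjusted p = 0.9996), and the exact permutation test gave p = 0.4 in normalized CPM and 0.3 in TPM. The interval reaches from 0.538-fold to 6.004-fold, so it holds both no change and a rise of several-fold.

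AGO1 spans 2R:13943387-13958089 on the minus strand with 8278 exonic bases, the most of any member, of which 196 are shared with CG33155 and 33 with mRpL53, both on the other strand. CG33155 had counts in Stromalin KD 2 alone (202) and mRpL53 had none. The genes most like AGO1 over the 6 libraries were Pkc98E, a protein kinase C gene, then CG42260 and CG32767, at root mean square differences of 0.23, 0.25 and 0.33 log2 units against a median of 1.51 over 1000 candidates. Pkc98E had 184, 247 and 195 TPM in control against 323, 235 and 420 in the KD libraries, with Stromalin KD 1 and 3 again the highest.

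The other members of the microRNA pathway were found in 2 to 4 libraries each. Dcr-1, which cuts microRNA precursors, had 0, 1529 and 72 counts in control against 1126, 519 and 0 in the KD libraries. Each genotype had a library at 0 and a library above 1000. Its mean TPM was the same in both to within the spread, 24.6 ± 39.4 in control against 24.4 ± 24.6 in the KD libraries (SD, n = 3 each), and the log2 fold change was 0.19 (SE 3.75, 95% interval -7.17 to 7.54, edgeR adjusted p = 0.9996). The sign of that estimate turned when control 1 (-0.40), control 3 (-0.30) or Stromalin KD 1 (-0.996) was left out. Dcr-1 lies on the minus strand of 3R:22734007-22741091 with 6913 exonic bases. Where both Dicer genes had counts, Dcr-2 exceeded Dcr-1 by 45.7-fold in control 2, 684-fold in control 3, 56.8-fold in Stromalin KD 1 and 94.3-fold in Stromalin KD 2, in TPM.

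loqs encodes the double-stranded RNA-binding partner of Dicer-1, and 1 of its isoforms also works with Dicer-2. It had 0, 160 and 0 counts in control against 540, 333 and 146 in the KD libraries, which is 0, 22.1 and 0 TPM in control against 71.2, 46.4 and 22.7 TPM in the KD libraries. It was found in 1 control library and in all 3 Stromalin KD libraries, and the genotypes did not overlap in TPM or normalized CPM, by a margin of 22.7 against 22.1 TPM. In raw counts they did overlap, at 146 against 160. Of the 7 tested members loqs was the only one without overlap in normalized CPM, against 6.62% of all 4093 tested genes. The log2 fold change was 2.85 (SE 4.65, 95% interval -6.27 to 11.96, edgeR adjusted p = 0.9996), and the exact permutation test gave p = 0.1, the smallest possible here. Without control 2, the only control library with loqs counts, the control group would be at 0. loqs lies on the plus strand of 2L:13382652-13385671. It shares 420 of its 2290 exonic bases with asRNA:CR44599 on the other strand, which had 0 counts in all libraries.

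drosha and pasha encode the nuclear Microprocessor, which starts microRNA maturation, and were the lowest members. drosha had 3, 28 and 0 counts in control against 0, 0 and 472 in the KD libraries, and Stromalin KD 3 held 93.8% of its counts. pasha had 0, 37 and 0 counts in control against 539, 0 and 0 in the KD libraries, and Stromalin KD 1 held 93.6%. The 2 genes were thus high in different libraries, and both were found together in control 2 alone. The log2 fold changes were 4.16 for drosha (SE 4.89) and 4.09 for pasha (SE 4.90), both with an adjusted p of 0.9996 in edgeR, and each rests on a single Stromalin KD library. drosha lies on the plus strand of 2R:7932429-7936840 with 4290 exonic bases. pasha lies on the plus strand of 3R:31617977-31622217 with 3214 exonic bases, of which 82 are shared with kek6 on the same strand, and kek6 held 129, 744 and 3 counts in control against 2418, 3101 and 5069 in the KD libraries.

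By mean TPM over the 6 libraries the members ran in the order Dcr-2 (2434), AGO1 (337), AGO2 (87.9), r2d2 (41.9), loqs (27.1), Dcr-1 (24.5), pasha (9.05) and drosha (6.91). The ranges of Dcr-2 and AGO1 did not overlap. AGO1 exceeded AGO2 in 5 of 6 libraries, the exception being control 3. From AGO2 downward each neighbour in this order overlapped with the next: r2d2 exceeded loqs in 1 library and fell below it in 3, and pasha and drosha were each the higher in 2 libraries.

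No member passed the test between the genotypes. Of the 7 tested, 0 had an adjusted p under 0.05 in edgeR, where 0.0489% of all 4093 tested genes did. At an unadjusted p under 0.05 there were also 0 of 7, against 3.23% of all genes. DESeq2 gave an adjusted p to Dcr-2, Dcr-1, AGO1 and loqs and called 0 of these 4, against 5.46% of the 2930 genes to which it gave one. Of the 7 estimates 5 were positive and 2 negative, with a median of 0.85, and a median absolute size of 1.005 against 1.59 over all tested genes. In edgeR the intervals of all 7 included 0 (the plot of fold changes). Only those of Dcr-2 and AGO1 were narrow enough there to limit the change to less than 10-fold in either direction. DESeq2 gave no such limit. Its SE was 2.10 for Dcr-2 (log2 fold change -0.20) and 2.12 for AGO1 (log2 fold change 0.83).

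**Figure D3:**
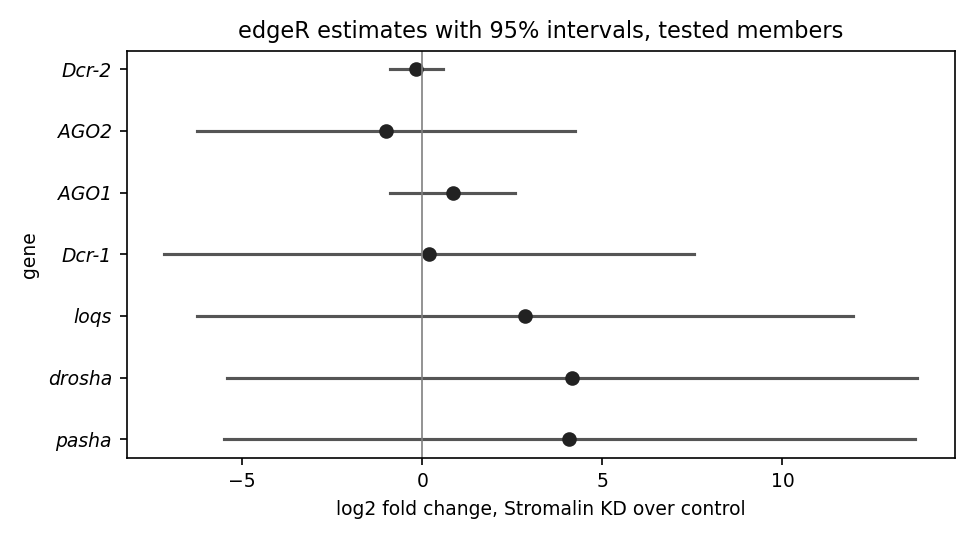
edgeR log2 fold change of Stromalin KD over control (x axis, points) with its 95% interval (lines) for the 7 tested members (y axis). Every interval includes 0. That of Dcr-2 runs from -0.91 to 0.58, and those of AGO2, Dcr-1, loqs, drosha and pasha each span more than 10 log2 units.

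Since both genotypes carry UAS-dicer2, Dcr-2 was also set against the other members within each library. Its share of the members' summed TPM was 85.1% ± 4.33 in control against 79.5% ± 5.23 in the KD libraries (SD, n = 3 each), a difference of -5.67 percentage points (two-sided exact permutation p = 0.3, smallest possible 0.1). The log2 ratio of Dcr-2 to the sum of the other 7 was 2.56 ± 0.53 and 1.98 ± 0.46, a difference of -0.58 (exact permutation p = 0.3). With AGO1 left out of the sum the difference in share turned to 1.22 percentage points, so that its sign rested on AGO1. AGO1 made up 40.5% to 91.4% of the TPM of the other 7 members.

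The ratio of Dcr-2 to AGO1 in TPM was 9.99, 12.8 and 9.63 in control against 6.64, 9.05 and 3.07 in the KD libraries, lower in each Stromalin KD library than in each control. The difference was -0.91 on the log2 scale (exact permutation p = 0.1, the smallest possible; 0.525 after Benjamini-Hochberg adjustment over the 7 measures compared in this way). This ratio was chosen after the values of both genes were seen. The summed TPM of the 5 microRNA pathway members was 185, 349 and 262 in control against 592, 320 and 718 in the KD libraries, with Stromalin KD 2 below control 2 (exact permutation p = 0.2, adjusted 0.525).

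How many members a library held went with how many genes it held. At 10 counts or more, 3, 8 and 4 members were found in control against 6, 5 and 4 in the KD libraries, a mean of 5.0 in each genotype (exact permutation p = 1.0). The libraries with 8, 6 and 5 members were those with the most genes at 10 counts or more, 4004, 3732 and 3197, whereas the others had 2298 to 2535 (the plot of members found). Control 2 was the only library with all 8 members. It was also the library with the highest level of fat body and blood cell markers, with 5 of 8 at 10 counts or more and a sum of 1208 TPM, where the other 2 controls had under 1 TPM and Stromalin KD ran from 0.11 to 736 TPM. The blood cell genes Hml, NimC1 and Pxn were at 0 in all libraries. The part of these markers in the members' counts was not tested.

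**Figure D4:**
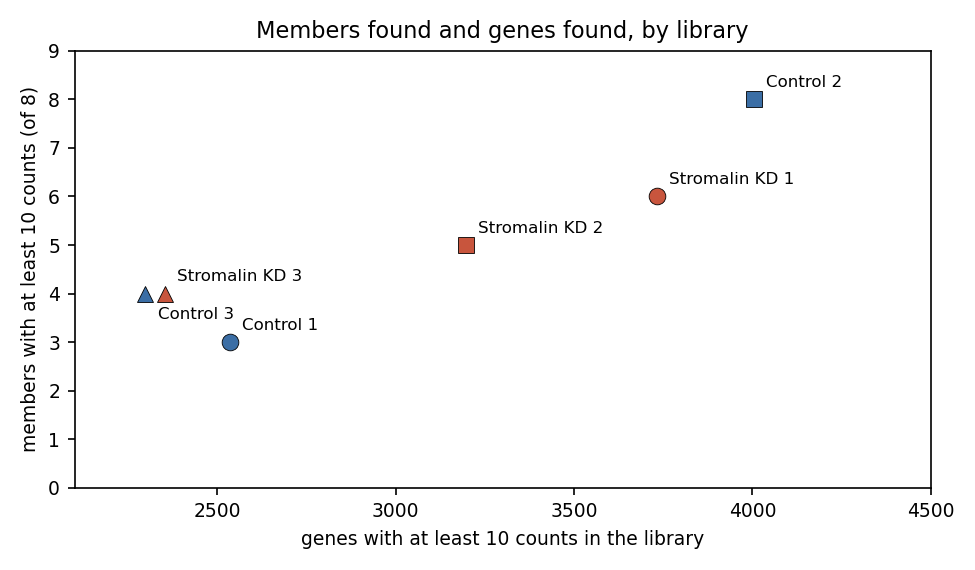
Number of the 8 small RNA pathway genes with at least 10 counts (y axis) against the number of all genes with at least 10 counts (x axis) in each library, control in blue and Stromalin KD in red. Control 2 has 8 members and 4004 genes; the 3 libraries with 2298 to 2535 genes have 3 or 4 members.

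Patchy detection was common among all genes. Of the 6922 genes with a count, 1001 (14.5%) had at least 10 counts in all 6 libraries and 2034 (29.4%) in a single library. Of the members 2 were found in 6 libraries, AGO2 in 5, Dcr-1 and loqs in 4, drosha and pasha in 2, and r2d2 in 1. The median gene found in 4 libraries had 3389 counts in total over the 6 libraries, near the 3246 of Dcr-1 and above the 1179 of loqs, and the median gene found in 5 libraries had 6290, near the 6569 of AGO2.

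The partners of these genes were taken from fixed name lists. Of 23 matched genes for microRNA export, Argonaute-bound silencing and mRNA deadenylation and decapping, 21 had at least 10 counts in some library and 9 in all 6. The planned names Dcp1 and Dcp2 matched no symbol as spelled and are not among the 23. DCP2, so written in the count table, was missed in this way. It reached 10 counts in all 6 libraries, at a mean of 172 TPM, and is left out of the numbers for this list. Of the 20 tested, 0 rose and 0 fell at an unadjusted p under 0.05 in edgeR, with 13 estimates positive and 7 negative. Over all 4093 tested genes 3.23% passed, with 2095 estimates positive and 1998 negative, so a count of 0 among 20 is near that background. The most abundant were pAbp, the poly(A)-binding protein, at 1343 mean TPM, and the translational repressors brat and mei-P26 at 282 and 184. gw, which encodes the GW182 protein that Argonaute-1 recruits to silence its targets, was also found in all 6 libraries, at 97.3 ± 73.1 TPM in control against 160 ± 106 in the KD libraries (log2 fold change 0.64, SE 1.58, edgeR adjusted p = 0.9996).

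Pop2, a catalytic subunit of the CCR4-NOT deadenylase, was the only matched partner gene that DESeq2 called (adjusted p = 0.0339). DESeq2 called 5.46% of the 2930 genes to which it gave an adjusted p, so 1 call in this list of 23 is near that background. Pop2 is named for that reason after its values were seen. It had 0, 0 and 0 counts in control against 1039, 682 and 0 in the KD libraries. Stromalin KD 3 was thus at 0 like the controls, and the gene passed the count filter only through Stromalin KD 1 and 2, so that it had to differ between the groups and no fold is given. In edgeR its p was 0.0531 and its adjusted p 0.809.

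Of 12 genes for siRNA loading, modification and chaperoning, 5 were found in all 6 libraries and 7 were tested, with 0 at an unadjusted p under 0.05 in edgeR and 0 called by DESeq2, against 3.23% and 5.46% of all genes, again a count near the background. The highest were the chaperones Hsc70-4 and Hsp83, at 1071 and 957 mean TPM, and Tudor-SN at 352. Hen1, which methylates the 3′ ends of siRNAs, had no more than 1 count in any library. armi had 10 counts in none, and blanks and Trax had 0 counts in all 6.

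The germline small RNA pathway, which uses PIWI-interacting RNAs, was found in some libraries only. Of 27 genes, 10 had a count, a share near that of all genes (6922 of 17737), and 0 reached 10 counts in all 6 libraries, where 1001 of the 17737 did. Of the 4 tested, 0 passed an unadjusted p of 0.05 in edgeR, against 3.23% of all tested genes, a count too small to say anything of the list. The genes with most counts were papi (3247, 174 and 1106 counts in control against 0, 1118 and 0 in the KD libraries), mino, which also encodes a glycerolipid enzyme (1402 in control 2 and 3212 in Stromalin KD 2), del (990 and 377 in the same 2 libraries), AGO3 (889 in Stromalin KD 2 alone) and Panx (436 in control 2 alone). The germline markers vas, nos, aub, piwi and bam were at 0 in all 6 libraries.

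The libraries were not made to capture small RNAs, and annotated microRNA and hairpin RNA genes were almost empty. Of 266 such genes 8 had a count and 4 had at least 10 in any library. mir-9381 had 760 counts in Stromalin KD 2, and 67 of its 74 bases lie in exons of lncRNA:mimi on the same strand. mir-4965 and mir-2a-1 had 724 and 391 counts, both in control 2 alone, and lie inside the genes Nup153 and spi but outside their exons. The exons of spi held 1, 0 and 0 counts in control against 519, 2659 and 544 in the KD libraries, so that mir-2a-1 had its counts in a library where spi had none. In control 2, the library with mir-4965, Nup153 had 2131 counts, and in Stromalin KD 2, the library with mir-9381, lncRNA:mimi had 9484. Nup153 was higher in Stromalin KD 3, at 8003 counts, where mir-4965 had 0. lncRNA:mimi had 8738 counts in control 2, where mir-9381 had 0. Which transcripts the reads of these microRNA genes came from was not tested. The only one found in all 6 libraries was hpRNA:CR18854, a long hairpin RNA gene of the endogenous siRNA class, on the minus strand of 2L:9787294-9790745. It had 453, 5267 and 646 counts in control against 945, 896 and 3149 in the KD libraries. The genotypes overlapped, with a log2 fold change of -0.20 (SE 2.07, edgeR adjusted p = 0.9996). This gene was named after its values were seen. Of its 2564 exonic bases 1019 are shared with IP3K1 on the other strand, which had 0 counts in all libraries.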

How the data were processed

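RNA-seq of hand-picked PPL1-γ1pedc neurons was used, 3 control and 3 Stromalin KD libraries, grouped by the labeled genotype. By the paper's methods, every sample had a collection day of its own. A table of unnormalized whole-number counts was deposited by the authors. HTSeq 0.9.1 and DESeq2 are the tools, and BDGP6 the build, in the submitters' processing notes. Aligner, strandedness and handling of molecular identifiers are not given in these sources. A deposited signal table holds the counts over the authors' DESeq2 size factors, and another deposited table holds TPM. A table of the authors' own fold changes and p-values was not used.

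From the counts, the 4093 genes that reached 10 counts in 2 or more libraries were tested with edgeR 4.0.16 in R 4.3.3: TMM factors, quasi-likelihood test, two-sided, Benjamini-Hochberg adjustment over all tested genes, threshold 0.05. SEs were derived from fold changes and F statistics, and the 95% intervals from those SEs. The prior degrees of freedom of the edgeR fit came out as infinite, so each gene's variance was set by the trend over all tested genes. The edgeR p-values and intervals of the members thus do not rest on each member's own spread between libraries. DESeq2 1.42.0 was run as the study's tool. Normalized CPM are counts scaled to the TMM-adjusted library size. Levels between genes were compared in TPM, with 1 added for log2 ratios to the sum of other members. Exact permutation tests used the 6 libraries and allow no p under 0.1. Gene positions and overlaps come from the Ensembl BDGP6 annotation, in which all 8 members matched by identifier and symbol. Of 66 partner gene names 57 matched by symbol, 5 by synonym, and 4 were left out: Dcp1, Dcp2, p23 and bootlegger. Matching kept upper and lower case, so that Dcp2 was missed although the count table holds it as DCP2.

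Named genes are the 8 members, the 3 partners per list with the highest mean TPM (for the PIWI-interacting RNA list the 5 with most counts), the 3 genes most like each member found in all libraries, genes above Dcr-2 in every library, and SA, w, ple, Vmat and elav; exceptions are stated in the text. gw was added for its role. The members and lists were chosen with earlier results of these data known. The steps were tested on simulated data. Alternatives were other normalizations, count filters, tools, detection limits and pseudocounts, the replicate number as a block, and leaving out each library.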

Additional observations from a re-analysis of the deposited data

How the results depend on the processing

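No member was called under any of 17 alternatives. drosha and pasha had an estimate in only 14 of them, and r2d2 did not pass the main count filter. Where a member had no estimate, the lack of a call is no result. Over the 17, the log2 fold change of Dcr-2 ran from -0.36 to -0.01, that of AGO1 from 0.47 to 1.21 and that of loqs from 2.26 to 11.29, with no adjusted p under 0.689 for AGO1 or loqs. Signs turned for AGO2 and Dcr-1, and for drosha with the replicate number as a block. Leaving out each library gave -1.53 to 1.51 for AGO2, positive without control 3, and -0.996 to 3.65 for Dcr-1. The difference in the Dcr-2 share turned to 1.22 percentage points without AGO1 and ran from -7.93 to -2.81 when a library was left out. The median rank of Dcr-2, 33.5 by TPM, was 16.0 by raw counts and 21.5 without rRNA and mitochondrially encoded genes.

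With the replicate number as a block, the log2 fold change was 0.51 for AGO2, -1.49 for Dcr-1 and -3.93 for drosha, none called, and 1 gene in all was called. The numbers mark no shared day. Deviations of same-numbered libraries correlated at 0.01, -0.04 and -0.04 over 1001 genes, against -0.03 to 0.06 for libraries of different number. These values show no pairing by number, but with so few libraries they cannot exclude one.

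Over all genes edgeR called 2. The count was 160 in DESeq2, 1460 in DESeq2 without Cook's or independent filtering, and 4 in limma on log2(TPM + 1). It was 0 with TMMwsp factors, with total counts, without rRNA genes and at 10 counts in 3 libraries, and 1 at 10 counts in 1 library and with no filter. Without 1 library it ran from 0 (Stromalin KD 2) to 3, and was 1 without control 1 or control 3. The cause of these differences was not tested. Matched partner genes called at an adjusted p under 0.05 numbered 0 in edgeR and 1 in DESeq2, against 0.0489% and 5.46% of all genes. At an unadjusted p under 0.05 they numbered 0 in edgeR, against 3.23% of all genes. That number was 0 to 1 when a library was left out (1 without Stromalin KD 2 or 3), with no share over all genes given for those fits. At a common coefficient of variation of 228% between libraries, intervals of members missing from some libraries are too wide to limit their change.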

Other observations

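The gene w, whose mini-white copy is a usual marker of UAS transgenes, had 20, 422 and 596 counts in control against 1928, 5 and 128 in the KD libraries. Dcr-2, which by the paper's methods is also on a transgene in both genotypes, had 32147 to 57439 counts. Whether the counts of w say anything of the expression of UAS-dicer2 was not tested. The pan-neuronal gene elav had 177, 212 and 516 TPM in control against 313, 247 and 427 in the KD libraries. Markers of other transmitter types summed to 0 to 13.4 TPM in control and 59.1 to 261 TPM in Stromalin KD, with ChAT, Gad1, Tdc2 and Trh at 0 in all 6 libraries. The rest of that list was VAChT, VGAT, VGlut and SerT, of which 3 reached 10 counts in some library and 0 in all 6. The part of these markers in the levels of the small RNA pathway genes was not tested.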
